A study of Mus musculus with 6 samples.

Results

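The mammalian clock genes *Per1*, *Per2*, *Per3*, *Cry1*, *Cry2* and *Ciart*, the output genes *Dbp* and *Tef*, and the activator genes *Clock* and *Npas2* were followed in the floated adipocytes of inguinal scWAT, taken from males at P7. These 10 genes were chosen by symbol as repressors, activators and first outputs of the clock, and all 10 were found among the 37384 gene symbols of the count table. The control mice, L1L2-FF (*Lats1*f/f*Lats2*f/f), carried floxed alleles of both Hippo kinases without Cre. The L1L2-AKO mice (*Lats1*f/f*Lats2*f/fAdipoqCre) carried the same alleles and a constitutive Cre driven by the *Adipoq* promoter, which is active in adipocytes. Its activity in other cells of the floated fraction was not measured here. Each genotype gave 3 libraries of mRNA, each made from the floated cells of 4 pooled mice, and the control mice were littermates. The mice were kept under a light-dark cycle. The time of day at which the tissue was collected is not given in the sources used here.

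The clock is a feedback loop of transcription. CLOCK, or its paralog NPAS2, pairs with BMAL1 (gene *Arntl*) and binds E-box sequences near *Per*, *Cry*, *Ciart*, *Dbp*, *Tef* and *Nr1d1*, and the PER, CRY and CIART proteins then repress the activators. NR1D1 and NR1D2 repress *Arntl*, *Clock* and *Npas2* in competition with ROR proteins, so that in tissues with a running clock *Arntl* is high when *Nr1d1* and *Dbp* are low. DBP, TEF and their relative HLF are PAR bZIP factors, which bind D-box sequences and carry clock time to metabolic genes. White adipose tissue of adult mice has such a clock, and rhythms of peripheral tissues are known to gain strength after birth.

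Between the genotypes, *Per3*, *Tef* and *Dbp* were lower in the L1L2-AKO-labelled libraries, to between 0.424 and 0.583 times the L1L2-FF level, whereas none of the 10 genes was higher. The activators *Clock* and *Npas2*, the late repressor *Cry1*, and *Per1*, *Per2*, *Cry2* and *Ciart* did not pass the threshold. Thus 3 of the 10 genes were lower and 7 were not called, where 7.18% of the 15674 genes tested were lower and 9.28% were higher (edgeR's quasi-likelihood test, two-sided, adjusted p under 0.05 with Benjamini-Hochberg adjustment over all genes tested). At an unadjusted p under 0.05 the numbers were 4 lower and 0 higher. The share of all genes at that unadjusted level was not counted, here or for the lists below. No gene of the 10 was called higher by DESeq2's Wald test or limma-voom either. In 4 of the 10 genes, all lower, the libraries of the genotypes did not overlap, against 18.4% of all genes tested without overlap in that direction, 18.0% in the other and 36.4% in either. The median log2 fold change of the 10 genes was -0.36, beside -0.02 for all genes tested.

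**Figure D1:**
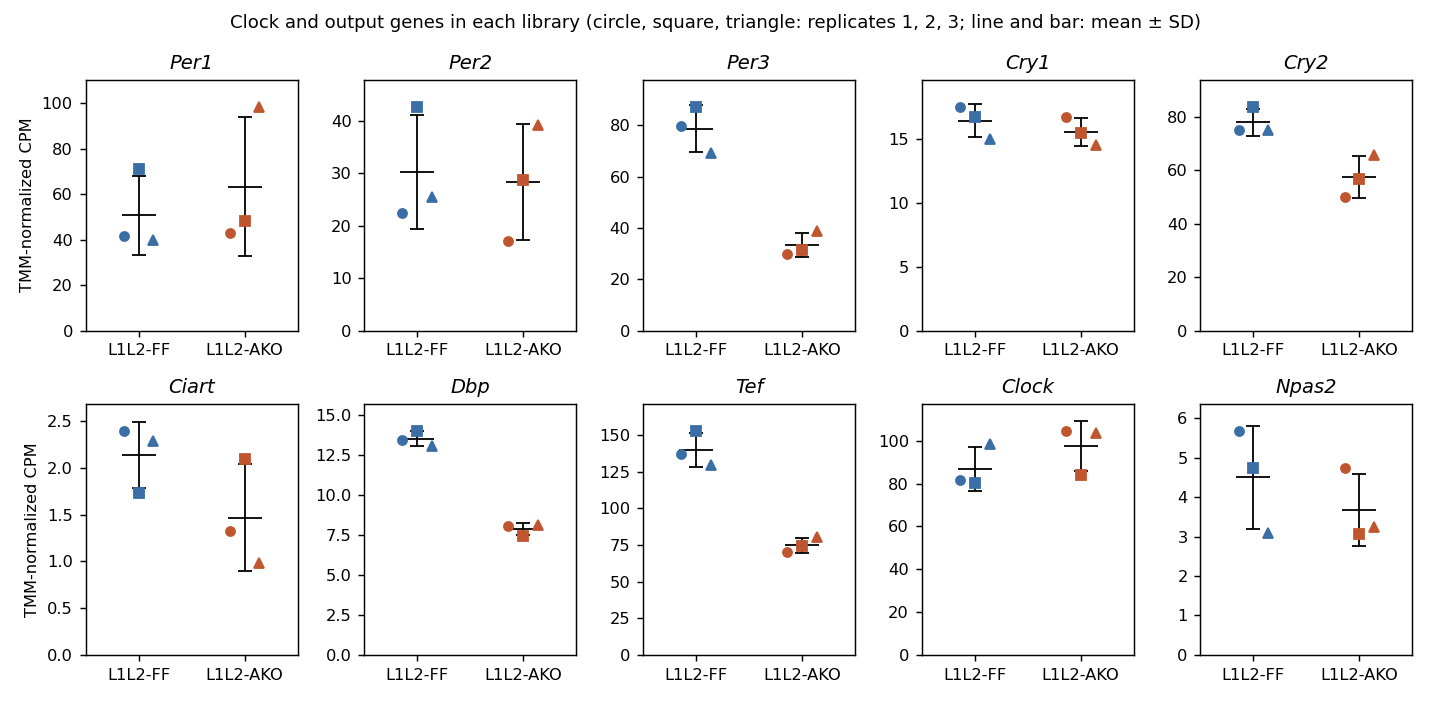
TMM-normalized level (CPM, y axes, linear and starting at 0) of the 10 genes in each library of L1L2-FF (blue) and L1L2-AKO (orange), with circles, squares and triangles for replicates 1, 2 and 3 and a line and bar for mean and SD over 3 libraries. *Per3*, *Cry2*, *Dbp* and *Tef* had no overlap between the genotypes, and *Per1* and *Per2* were highest in L1L2-FF replicate 2 and in L1L2-AKO replicate 3.

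The libraries held 30548473 to 32107917 counts each, and levels are given as CPM (counts scaled to a common library total) after TMM normalization. *Lats1*, checked first as a targeted gene, was 0.485 times its L1L2-FF level in the L1L2-AKO-labelled libraries (edgeR, adjusted p = 0.00131). *Lats2* went against the label at 1.56 times (edgeR, adjusted p = 0.0278), in counts that hold floxed and other exons together. *Lats2* also shares 41.2% of its 50-base stretches with *Gm49361*, a gene without a row, which leaves the *Lats2* count uncertain. Every direction here is that of the labels. In such bulk samples, fewer cells of a type and less RNA per cell cannot be told apart. The 12 mature adipocyte markers, each with at least 1571 counts in every library, had a summed level of 29060 to 35686 CPM in L1L2-FF and 25970 to 34444 CPM in the L1L2-AKO-labelled libraries. Their summed level weighs the most abundant markers most, so it can hide falls in the others. Of these markers 5 were lower and 0 higher by edgeR's test, where 7.18% of all genes tested were lower and 9.28% higher. At an unadjusted p under 0.05 in that test, 8 were lower and 0 higher. The libraries did not overlap in 8 that were lower and 1 that was higher, against 18.4% and 18.0% of all genes tested. Of 10 macrophage markers 9 were higher, with a summed level of 219 to 425 CPM in L1L2-FF and 825 to 919 CPM in the L1L2-AKO-labelled libraries. Schwann cell markers had 4 of 6 lower and 1 higher (summed level 816 to 1664 CPM against 751 to 1380 CPM), mural cell markers 2 of 6 lower and 1 higher (974 to 1336 CPM against 740 to 977 CPM), and progenitor and fibroblast markers 1 of 8 lower (594 to 895 CPM against 446 to 585 CPM). Endothelial, red cell, skeletal muscle, and T and B cell markers had none past the threshold in edgeR's test, with 1, 0, 3 and 0 lower and 0, 0, 0 and 2 higher at an unadjusted p under 0.05, and no marker was at 3 or fewer counts in all 6 libraries. The part of these cell types in the levels of the clock genes was not tested.

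Among the repressors, only *Per3* passed the test. *Per3*, the PER family member which the core loop can run without, occupies 151003652 to 151044665 of chromosome 4 (mm10, minus strand, ENSMUSG00000028957.12). Its level was 79.8, 87.3 and 69.1 CPM in replicates 1 to 3 of L1L2-FF and 29.9, 31.3 and 38.9 CPM in the L1L2-AKO-labelled libraries. The highest L1L2-AKO-labelled library stood well under the lowest control. *Per3* fell by 1.24 on the log2 scale (SE 0.144, 95% interval -1.57 to -0.91, edgeR with Benjamini-Hochberg adjustment, adjusted p = 0.00144).

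Of the 10 genes, 9 had a promoter in the RefSeq table (build GRCm38.p6). The stretch in front of *Per3* is shown because it was the only one among these 9 genes that held the exact sequence TTATGTAA. This is 1 form of the D-box, which DBP, TEF and HLF bind. The motifs were chosen with the results known. The 250 bases before the annotated start, chr4:151044666-151044915 on the minus strand, are given 5′ to 3′ with both D-boxes (TTATGTAA, either strand) in capitals.
Per3: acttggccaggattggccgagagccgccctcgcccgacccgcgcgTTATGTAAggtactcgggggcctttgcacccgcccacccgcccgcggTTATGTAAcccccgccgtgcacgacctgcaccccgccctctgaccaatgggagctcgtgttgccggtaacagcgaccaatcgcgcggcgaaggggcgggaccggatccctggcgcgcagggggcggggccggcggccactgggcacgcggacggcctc
The D-boxes begin 205 and 158 bases before the start. Of all 32851 promoter stretches of that length, 0.819% held this D-box, and 0.113% held the form TTACGTAA, which no stretch of the 9 genes held. Other variants of the D-box were not searched.

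*Per1* and *Per2*, the PER genes that also respond to acute signals, varied more among the libraries of a genotype than between the means of the genotypes. *Per1* (chromosome 11, 69095217 to 69109960) stood at 41.7, 70.8 and 39.6 CPM in replicates 1 to 3 of L1L2-FF and at 43.0, 48.3 and 98.5 CPM in the L1L2-AKO-labelled libraries. *Per2* (chromosome 1, 91415982 to 91459324) stood at 22.5, 42.7 and 25.4 CPM in L1L2-FF and at 17.0, 28.7 and 39.3 CPM in L1L2-AKO. Both genes were highest in L1L2-FF replicate 2 and in L1L2-AKO replicate 3, and the genotypes overlapped. The log2 fold change of *Per1* was 0.32 (95% interval -0.48 to 1.11, edgeR, adjusted p = 0.595), and it was -0.14 without L1L2-AKO replicate 3. That of *Per2* was -0.09 (95% interval -0.86 to 0.67, edgeR, adjusted p = 0.886), and it was 0.24 without L1L2-FF replicate 2 and 0.17 without L1L2-AKO replicate 1. These were the widest intervals among the 10 genes, beside that of *Ciart*.

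**Figure D2:**
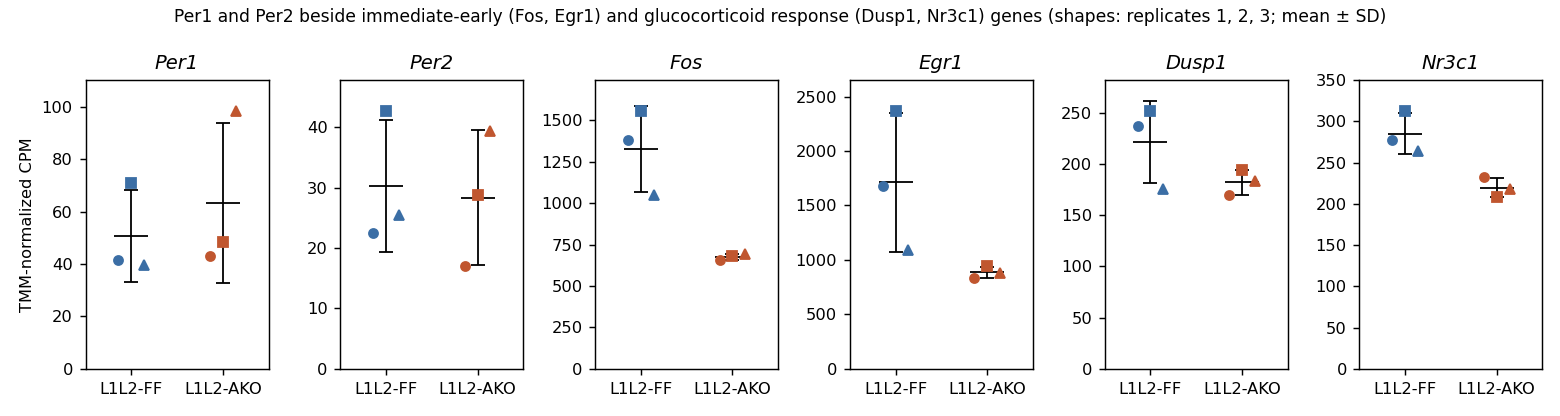
TMM-normalized CPM (y axes, linear from 0) of *Per1* and *Per2*, of the 2 immediate-early genes with the highest CPM (*Fos*, *Egr1*) and of the 2 such genes of the glucocorticoid list (*Dusp1*, *Nr3c1*) in each library, with mean and SD over 3 libraries and shapes for replicates 1, 2 and 3. *Fos* and *Egr1* were lower in all 3 L1L2-AKO-labelled libraries, and *Per1* was not.

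*Per1* and *Per2* are known to be induced by cAMP and glucocorticoid signals, and *Per2* by heat shock, so genes of those responses were read from the same fit. Of 14 immediate-early and heat shock genes, 8 were lower and 1 was higher in the L1L2-AKO-labelled libraries. Over all genes tested, 7.18% were lower and 9.28% higher. The median log2 fold change of the list was -0.997. The AP-1 subunit *Fos* had 1379, 1559 and 1047 CPM in L1L2-FF and 657, 681 and 691 CPM in the L1L2-AKO-labelled libraries. *Egr1*, an immediate-early zinc finger factor, had 1679, 2370 and 1095 CPM in L1L2-FF and 838, 941 and 881 CPM in L1L2-AKO. The others that were lower were *Fosb*, *Jun*, *Egr2*, *Atf3*, *Ier2* and the co-chaperone *Dnajb1*, and the chaperone *Hsph1* was the higher one, with a log2 fold change of 1.27. Of the 14 genes, 13 lay above their genotype mean of log2 CPM in each of L1L2-FF replicates 1 and 2 and 1 in replicate 3, and the numbers in L1L2-AKO replicates 1 to 3 were 7, 12 and 5. *Per1* was high in L1L2-FF replicate 2 and in L1L2-AKO replicate 3. The part of these responses in the *Per* levels was not tested. Before flotation the tissue was minced and digested with collagenase, and the part of that handling in these levels was not tested either. Of 11 glucocorticoid response genes, *Per1* among them, none passed the threshold in edgeR's test, with 2 lower and 0 higher at an unadjusted p under 0.05. Their median log2 fold change was 0.15, and 6 of the 11 were positive. Those with the highest CPM were the glucocorticoid receptor gene *Nr3c1*, with a log2 fold change of -0.37, and the phosphatase gene *Dusp1*, with -0.28. Of these 11 genes, 7, 8 and 2 lay above their genotype mean in L1L2-FF replicates 1 to 3. The numbers in L1L2-AKO replicates 1 to 3 were 3, 8 and 8.

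*Cry2* and *Cry1* encode the repressors that bind CLOCK and BMAL1 most directly, and neither passed the threshold. *Cry2* (chromosome 2, 92403646 to 92434043) had 74.8, 83.7 and 75.1 CPM in L1L2-FF and 50.01, 56.8 and 65.6 CPM in the L1L2-AKO-labelled libraries, without overlap. Its log2 fold change of -0.44 (95% interval -0.73 to -0.14) lay just outside the threshold (edgeR, adjusted p = 0.0525), and the adjusted p ranged from 0.0375 to 0.168 over the alternatives. *Cry2* passed with library size alone, with upper-quartile factors, without the 20 most abundant genes in the library sizes and with DESeq2's Wald test, and with no library left out. *Cry1* (chromosome 10, 85131700 to 85185064) had 17.6, 16.7 and 15.1 CPM in L1L2-FF and 16.7, 15.5 and 14.5 CPM in L1L2-AKO. These ranges overlapped, and the log2 fold change was -0.08 (95% interval -0.38 to 0.23, edgeR, adjusted p = 0.747). *Ciart*, which encodes the repressor CHRONO, had the fewest counts of the 10, with 28 to 75 counts per library. Its level was 2.39, 1.73 and 2.29 CPM in L1L2-FF and 1.33, 2.09 and 0.978 CPM in L1L2-AKO. The log2 fold change of -0.54 had an interval of -1.32 to 0.24 (edgeR, adjusted p = 0.336), and the libraries of the genotypes overlapped. *Ciart* (chromosome 3, 95878503 to 95882251) shares 11.9% of its 50-base stretches with transcripts of *Gm9176*, which has no row in the table.

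The PAR bZIP output genes shared a direction between the genotypes, but not the order of the libraries within a genotype. *Tef* (chromosome 15, 81802421 to 81826863), whose factor drives detoxification and metabolic genes, was the highest of the 10 per kb of exon in the controls, with 137, 153 and 129 CPM in L1L2-FF and 69.9, 74.4 and 80.3 CPM in the L1L2-AKO-labelled libraries. The difference of the means was wider than the range within either genotype, and *Tef* fell by 0.90 on the log2 scale (SE 0.116, edgeR, adjusted p = 0.00217). *Dbp* (chromosome 7, 45705088 to 45710203), the classical output gene of the clock, had 13.4, 13.98 and 13.1 CPM in L1L2-FF and 8.05, 7.42 and 8.10 CPM in L1L2-AKO. Replicates of a genotype differed by less than 1 CPM, and *Dbp* fell by 0.78 on the log2 scale (SE 0.138, edgeR, adjusted p = 0.00787). On the opposite strand *Sphk2* overlaps 18.01% of the exon bases of *Dbp*, with 823 to 1027 counts per library, and as the strand setting of the counting is not given in the sources used here, reads of that stretch cannot be assigned with certainty. The relative *Hlf* had 13.9, 13.8 and 19.8 CPM in L1L2-FF and 5.82, 3.68 and 5.45 CPM in L1L2-AKO, and fell by 1.67 on the log2 scale (SE 0.235, edgeR, adjusted p = 0.00308). L1L2-FF replicate 3 was the highest control in *Hlf* and the lowest in *Tef* and *Dbp*. All 3 PAR bZIP genes were thus lower in every L1L2-AKO-labelled library than in every control, where 18.4% of genes were so, and *Nfil3*, whose factor binds the same D-boxes as a repressor, had a log2 fold change of 0.03 (95% interval -0.54 to 0.59, edgeR, adjusted p = 0.956).

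E-boxes (CACGTG, the same on both strands) stood within 250 bases before an annotated start in 4 of the 9 genes with a promoter in the table. By stretches, 5 of the 13 of these genes held one, and 6.02% of all stretches did. They are shown because the 4 genes did not change alike. Each line gives a site in capitals with 12 bases on either side.
Per1, chr11:69098771-69098800, plus strand: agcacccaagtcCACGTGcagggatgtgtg
Cry1, chr10:85185097-85185126, minus strand: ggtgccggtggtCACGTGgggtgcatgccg
Ciart, chr3:95882327-95882356, minus strand: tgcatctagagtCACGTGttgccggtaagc
Tef, chr15:81811264-81811293, plus strand: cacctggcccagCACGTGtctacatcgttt
Of the genes that carry these sites, *Tef* was lower in the L1L2-AKO-labelled libraries and *Per1*, *Cry1* and *Ciart* were not called. *Ciart* held 3 E-boxes in its stretch and *Tef* 1 in each of its 2 stretches, while *Per3* and *Dbp*, which were lower, held none there. The variant CACGTT, searched on both strands, was found for *Cry1* and *Cry2* and in 3.85% of all stretches. The sequence GGAATG on either strand, the core of sites bound by TEAD factors, was in 12.6% of all stretches and in none of the 9 genes. These windows leave out distal elements, and *Per2* had no entry.

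No activator passed the threshold. *Clock* (chromosome 5, 76209868 to 76304792) had 81.6, 80.2 and 98.4 CPM in L1L2-FF and 105, 83.9 and 104 CPM in L1L2-AKO, a log2 fold change of 0.17 (95% interval -0.15 to 0.48, edgeR, adjusted p = 0.465). *Npas2* (chromosome 1, 39193731 to 39363236), which can replace *Clock*, had 5.68, 4.73 and 3.09 CPM in L1L2-FF and 4.74, 3.08 and 3.25 CPM in L1L2-AKO, a log2 fold change of -0.29 (95% interval -0.95 to 0.38, edgeR, adjusted p = 0.564). For both genes the libraries of the genotypes were interleaved. Their partner *Arntl*, encoding BMAL1, had 18.8, 13.2 and 15.4 CPM in L1L2-FF and 16.3, 14.9 and 14.4 CPM in L1L2-AKO. Its log2 fold change was -0.05 (95% interval -0.43 to 0.32, edgeR, adjusted p = 0.861).

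The other core clock genes, which were not among the 10, were read from the same fit, and 9 of 10 passed the filter on low counts. Of these 2 were lower and 0 higher by edgeR's test, where 7.18% of all genes tested were lower and 9.28% higher. At an unadjusted p under 0.05, 5 were lower and 0 higher, and 0 were higher by DESeq2 or limma-voom. The libraries did not overlap in 3, all lower, against 18.4% of all genes tested in that direction. *Nr1d1*, encoding the repressor REV-ERBα, had 63.4, 76.2 and 63.0 CPM in L1L2-FF and 36.0, 29.3 and 35.9 CPM in L1L2-AKO, without overlap. *Nr1d1* fell by 1.001 on the log2 scale (SE 0.133, edgeR, adjusted p = 0.00243), and 8.55% of its exon bases overlap the opposite-strand gene *Thra*. *Thra* had 3421 to 5402 counts per library, against 924 to 2464 for *Nr1d1*. As for *Dbp*, reads of that stretch cannot be assigned with certainty without the strand setting. *Nr1d2*, encoding REV-ERBβ, had a smaller log2 fold change of -0.35 (edgeR, adjusted p = 0.136). Its libraries did not overlap either, at 57.0 CPM or more in L1L2-FF and 54.8 CPM or less in L1L2-AKO. *Rora*, which encodes an activator of *Arntl*, had a log2 fold change of -0.53 (edgeR, adjusted p = 0.124), and its relative *Rorb*, left out by the filter, had at most 16 counts in a library. The E-box repressor genes *Bhlhe40* and *Bhlhe41* had log2 fold changes of -0.44 and -0.15, and the *Arntl* paralog *Arntl2* of 0.02, with adjusted p-values in edgeR's test of 0.153, 0.759 and 0.980.

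**Figure D3:**
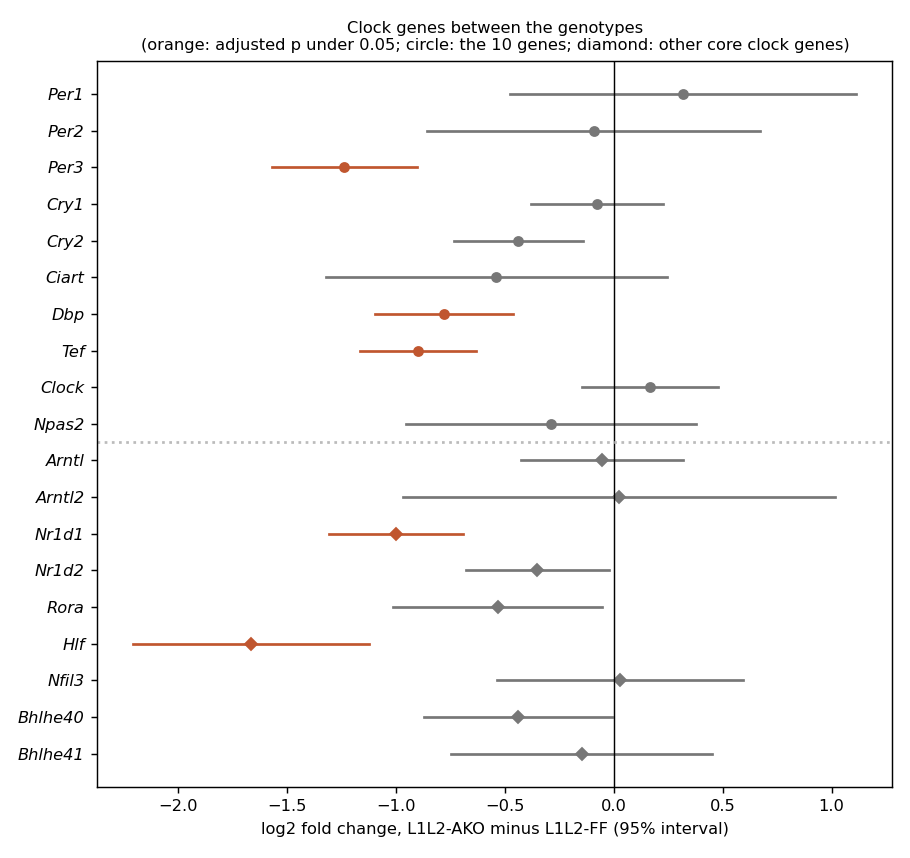
Log2 fold change of L1L2-AKO over L1L2-FF with its 95% interval (x axis) for the 10 genes (circles, above the dotted line) and the 9 other core clock genes tested (diamonds), where orange marks an adjusted p under 0.05 in edgeR's test. *Per3*, *Dbp*, *Tef*, *Nr1d1* and *Hlf* were lower, while the intervals of *Clock*, *Npas2*, *Arntl* and *Cry1* include 0.

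Per length, the order of levels among the 10 genes differed between the genotypes. In CPM per kb of exon, L1L2-FF had *Tef* at 17.8 ± 1.51 (SD, n = 3), *Cry2* at 12.3 ± 0.801, *Per1* at 9.01 ± 3.10, *Per3* at 8.19 ± 0.954, *Clock* at 6.32 ± 0.739, *Per2* at 5.16 ± 1.87, *Cry1* at 4.92 ± 0.382, *Dbp* at 4.51 ± 0.155, *Ciart* at 0.946 ± 0.157 and *Npas2* at 0.940 ± 0.273. *Tef* stood apart from *Cry2*, *Per3* from *Clock*, and *Dbp* from *Ciart*, and the libraries of all other neighbours in this order overlapped. In the L1L2-AKO-labelled libraries the order on the same scale was *Per1* at 11.2 ± 5.43 (SD, n = 3), *Tef* at 9.51 ± 0.661, *Cry2* at 9.10 ± 1.24, *Clock* at 7.09 ± 0.851, *Per2* at 4.84 ± 1.90, *Cry1* at 4.67 ± 0.333, *Per3* at 3.47 ± 0.502, *Dbp* at 2.63 ± 0.127, *Npas2* at 0.770 ± 0.191 and *Ciart* at 0.648 ± 0.252. There *Cry2* stood apart from *Clock*, *Cry1* from *Per3*, *Per3* from *Dbp* and *Dbp* from *Npas2*. *Clock* was below *Per3* per kb in all 3 controls, though by as little as 7.17 against 7.19 in replicate 3, and above it in all 3 L1L2-AKO-labelled libraries.

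Whether the collections could have differed in clock phase was read from the activators against the repressors and outputs within each library, which needs no scaling between libraries. The log2 ratio of *Clock* to *Per3* counts was 0.03, -0.12 and 0.51 in replicates 1 to 3 of L1L2-FF and 1.80, 1.42 and 1.41 in the L1L2-AKO-labelled libraries. That of *Arntl* to *Nr1d1* was -1.75, -2.53 and -2.03 in L1L2-FF and -1.14, -0.97 and -1.32 in L1L2-AKO, and that of *Arntl* to *Dbp* was 0.49, -0.09 and 0.24 against 1.02, 1.01 and 0.83. These ratios were higher in every L1L2-AKO-labelled library. Of 27 such ratios, *Clock*, *Arntl* and *Npas2* each over 9 repressor or output genes, 11 were higher without overlap and 0 lower. All 11 were over *Per3*, *Nr1d1*, *Dbp*, *Tef* or *Cry2*, each of which was itself lower without overlap. With activators that were not called, the ratios restate those differences and hold no separate measure of phase. *Nr1d2* was lower without overlap too, but the ratio of each activator to it overlapped between the genotypes. Over *Per1* and *Per2* no activator gave a ratio without overlap.

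**Figure D4:**
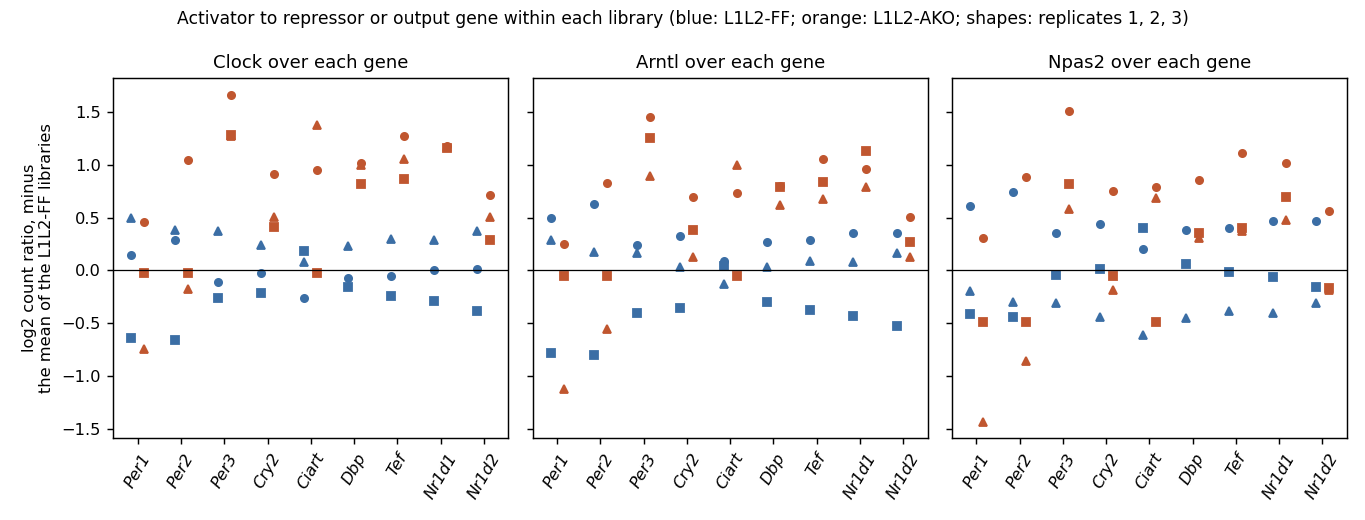
Log2 ratio of the counts of *Clock*, *Arntl* and *Npas2* (panels) to each of 9 repressor or output genes (x axis) within each library, from which the mean of the L1L2-FF libraries is subtracted (y axis), for L1L2-FF (blue) and L1L2-AKO (orange), with shapes for replicates 1, 2 and 3. The orange points lie above the blue for *Per3* and *Nr1d1* in all panels, and both colours mix over *Per1* and *Per2*.

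Libraries of 1 genotype also differed from each other in the clock genes. Of the same 9 repressor and output genes, L1L2-FF replicate 2 was the highest control in 8 (*Per1*, *Per2*, *Per3*, *Cry2*, *Dbp*, *Tef*, *Nr1d1* and *Nr1d2*), and it was the lowest control in *Arntl* and in *Ciart*. L1L2-AKO replicate 3 was the highest of its label in 7 of the 9 (*Per1*, *Per2*, *Per3*, *Cry2*, *Dbp*, *Tef* and *Nr1d2*), and it too was the lowest in *Arntl* and *Ciart*. Both libraries also stood apart in marker genes. L1L2-FF replicate 2 lay above its genotype mean in 10 of 10 macrophage, 8 of 8 progenitor and fibroblast, 7 of 7 T and B cell and 6 of 6 skeletal muscle markers but in 2 of 12 adipocyte markers. It did so in 7 of 8 endothelial, 5 of 6 mural, 5 of 6 Schwann cell and 5 of 6 red cell markers. L1L2-AKO replicate 3 lay above its genotype mean in 11 of 12 adipocyte and 6 of 6 skeletal muscle markers and in 0 of 8 endothelial markers. For T and B cell markers it was 6 of 7, Schwann cell 5 of 6, red cell 3 of 6, macrophage 3 of 10, progenitor and fibroblast 2 of 8 and mural 0 of 6. Muscle markers were low, with summed levels of 3.36 to 19.9 CPM, as were T and B cell markers, with 7.12 to 25.5 CPM. The part of these cells in the order of the libraries was not tested. For *Per3*, *Dbp* and *Tef* the differences among replicates were smaller than the difference between the genotypes, and for *Per1* and *Per2* they were larger. With both of these libraries left out, a choice made after the data were seen, 3 of the 10 genes were again lower and 0 higher, *Per3*, *Dbp* and *Tef* among the 3. Of all 15746 genes tested in that fit, 883 were lower and 1092 higher. Between the genotypes *Arntl* differed by -0.05 on the log2 scale while *Nr1d1* differed by -1.001. As each library is 1 collection at an hour that is not given, a difference of phase and a difference of level between the genotypes cannot be told apart from these counts.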

How the data were processed

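RNA of floated adipocytes of inguinal scWAT from P7 males was measured in 3 L1L2-FF and 3 L1L2-AKO libraries, each a pool of 4 mice, grouped by the submitters' titles. The tissue had been minced and digested with collagenase before the cells were floated. The authors sequenced paired ends on a BGISEQ-500, aligned them to mm10 with HISAT2 2.1.0 and processed them with SAMtools and StringTie 1.3.5. As deposited, the values are counts of reads for each gene symbol and carry no normalization. The annotation, counting program and strand setting are not given in the sources used here.

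Counts as deposited were filtered with filterByExpr (minimum count 10, minimum total count 15; 15674 of 37384 genes kept), TMM-normalized and compared by edgeR 4.0.16's quasi-likelihood test in R 4.3.3 over all genes, two-sided, with Benjamini-Hochberg adjustment and a call at 0.05. The SE of a log2 fold change is its size divided by the square root of F, and the p-values measure the spread between these pooled libraries. The fit was tested on simulated data with known changes. With total counts of 30548473 to 32107917, precision was set by the 3 libraries per genotype, for which permuting the labels gives no two-sided p below 0.1. Replicates of a genotype differed by more than sampling noise.

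Genes were matched by symbol to GENCODE M21 (mm10) for positions, exon lengths, overlaps and shared 50-base stretches, and to RefSeq promoters (GRCm38.p6), with 9 of the 10 genes matched. Python 3.11.15, pandas 2.3.3 and matplotlib 3.10.9 were used.

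The 10 genes and all lists (other core clock genes, clock protein modifiers, widely rhythmic output genes, glucocorticoid response, immediate-early and heat shock genes, and markers of adipocytes, macrophages, endothelial, mural, progenitor, Schwann, muscle, red, and T and B cells) were chosen with earlier results of these data known. One gene of these lists is not reported here. All genes of the first 2 groups are named, of the other clock lists those past the threshold and the 2 most abundant, and of the marker lists only counts. The alternatives were other scalings (DESeq2's size factors, library size, upper quartile, without the 20 most abundant genes), DESeq2 1.42.0's Wald test, limma-voom (limma 3.58.1), edgeR's robust setting, other count filters, an added 2-fold threshold, replicate number as a block, and each library left out.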

Additional observations from a re-analysis of the deposited data

How the results depend on the processing

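With 3 libraries per genotype the intervals of *Per1*, *Per2* and *Ciart* were the widest of the 10 genes, which limits what can be said of them. The number of the 10 genes lower in L1L2-AKO was 3, and 3 or 4 under every alternative but the added 2-fold threshold, which left 1 (*Per3*) by its construction. The fourth gene was *Cry2*. *Per3*, *Dbp* and *Tef* stayed lower and past an adjusted p of 0.05 in edgeR's test, DESeq2 and limma-voom under all others, and none of the 10 was higher under any. The number of other core clock genes lower was 2 under every alternative. Of the 7 widely rhythmic output genes 2 passed, 1 with upper-quartile factors, and between 1 and 2 with each library left out: 1 without L1L2-FF replicate 1 or 3 or L1L2-AKO replicate 2 or 3. The gene lost was *Tspan4* each time. The count was 3 without both L1L2-FF replicate 2 and L1L2-AKO replicate 3, where *Usp2*, named after its values were seen, was lower (log2 fold change -1.22, edgeR, adjusted p = 0.0317). The cause was not tested. Over all genes the 2580 calls became 1366 with the 2-fold threshold, 1290 when replicate 1 of L1L2-FF was left out, and 1281 and 1374 when replicates 2 and 3 of L1L2-AKO were.

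Log2 fold changes that were not called changed sign in a few fits. With each library left out, *Per1* ranged from -0.14 to 0.64, *Per2* from -0.39 to 0.24, *Arntl* from -0.17 to 0.086, *Arntl2* from -0.30 to 0.60, *Nfil3* from -0.21 to 0.26 and *Bhlhe41* from -0.29 to 0.068. With upper-quartile factors *Arntl2* was -0.0044 and *Nfil3* -0.0056, and *Nfil3* was -0.018 with limma-voom. Without both L1L2-FF replicate 2 and L1L2-AKO replicate 3, a fit added after the data were seen, *Arntl2* was -0.14 and *Nfil3* -0.34.

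Whether same-numbered libraries were paired is not given in the sources used here. The correlations of their deviations from the genotype means over the genes tested were 0.188, 0.255 and -0.0544 for replicates 1, 2 and 3. With the replicate block 3 of the 10 genes were lower and 0 higher, as without it, *Nfil3* was -0.0086, and 2514 genes were called in all, against 2580. Among the controls, L1L2-FF replicates 1 and 2 correlated best with their own number, and L1L2-FF replicate 3 did so with L1L2-AKO replicate 1 (0.211).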

Other observations

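Of 17 genes for proteins that modify or degrade clock proteins, 1 was higher and 0 were lower by edgeR's test, where 9.28% of all genes tested were higher and 7.18% lower. At an unadjusted p under 0.05 the numbers were 1 higher and 3 lower. The libraries did not overlap in 2 that were higher and 5 that were lower, against 36.4% of all genes in either direction, and the log2 fold changes ranged from -0.71 to 0.55. The higher one was *Ddb1*, part of a ubiquitin ligase that acts on many proteins, with 422, 437 and 452 CPM in L1L2-FF and 625, 600 and 692 CPM in the libraries labelled L1L2-AKO (log2 fold change 0.55; edgeR with Benjamini-Hochberg adjustment, adjusted p = 0.0251). *Nono*, the next most abundant, had a log2 fold change of 0.06.

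Of 7 genes that oscillate in many mouse organs, 1 was lower and 1 higher, where 7.18% of all genes tested were lower and 9.28% higher. *Por*, which passes electrons to cytochrome P450 enzymes, had 345, 332 and 350 CPM in L1L2-FF and 155, 132 and 161 CPM in L1L2-AKO (log2 fold change -1.20; edgeR, adjusted p = 9.8e-04). The tetraspanin gene *Tspan4* had 32.2, 57.8 and 23.7 CPM in L1L2-FF and 56.2, 124 and 122 CPM in L1L2-AKO, with overlap (log2 fold change 1.41; edgeR, adjusted p = 0.0431). *Tspan4* lost its call with upper-quartile factors (adjusted p = 0.0506) and when any of 4 libraries was left out, with an adjusted p of up to 0.145 in edgeR's test, while *Por* was lower under every alternative. *Nampt*, the rate-limiting enzyme of NAD salvage, had a log2 fold change of -0.12.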
